A study of Sus scrofa with 599 samples.

Results

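The greater omentum fat (GOM), a visceral depot that hangs from the stomach inside the abdominal cavity, was compared with the upper layer of backfat (ULB), a subcutaneous depot, in adult female Bama pigs after weight loss. The comparison took the 10 WL GOM and 10 WL ULB RNA-seq samples, out of 236 deposited in the series, and the same 10 and 10 of 240 Hi-C samples. Bama is a Chinese miniature breed. The WL pigs were 2 years old at the start, ate a high-fat diet for 22 weeks and then a strongly restricted diet for 12 weeks, and, per the study's methods, each carcass gave both depots, but the labels do not say that a replicate number marks a pig. The pigs carried no transgene. Where the depots were compared under obesity, the WG pigs, which had the 22 weeks of high-fat diet without restriction, gave 45 GOM and 38 ULB RNA-seq samples and 46 and 39 Hi-C samples.

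The omentum is a double fold of peritoneum filled with fat. Its surface is a sheet of mesothelial cells, a flat epithelium that arises from the lateral plate mesoderm and in the embryo is marked by WT1, and it holds clusters of lymphoid cells that sample the peritoneal fluid. Backfat lies under the skin of the trunk, and its fibroblasts and fat cells keep part of the transcription factor code of the body wall, such as the homeobox genes EN1 and ZIC1 and genes of the IRX and HOX families. Both depots are built from fat cells that store triglyceride, release it by lipolysis and secrete hormones such as leptin, but subcutaneous fat is known as the more lipogenic and more collagen-rich of the pair. In the nucleus, active and inactive chromatin gather in compartments named A and B, which Hi-C reads from the contacts of each genomic segment, and acetylation of histone H3 at lysine 27 (H3K27ac) marks active enhancers and promoters.

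Depth was similar in both groups: the expected counts on protein-coding genes (PCGs) ran from 10221110 to 21677739 per library, kallisto estimates that the authors summed by gene, with a median of 14904399. Labels of the 20 WL libraries were checked against marker genes first, and those of the WG libraries were not. The 5 adipocyte markers summed to 6345 to 15342 TPM (a level scaled by gene length and library total) in GOM and to 15552 to 30393 TPM in ULB, so both depots held the transcripts of fat cells. The body wall markers summed to 4.34 to 12.7 TPM in GOM and to 70 to 122 TPM in ULB, and the mesothelial pair WT1 and BNC1 to 29.9 to 227 TPM in GOM and to at most 1.71 TPM in ULB, and in both sums the groups did not overlap, so these markers went with the tissue label in all 20 libraries. UPK3B, MSLN, LRRN4, KRT19 and ITLN1, further markers of mesothelium, were not analysed here. Over 12 genes of a wider mesothelial list the sums overlapped, at 502 to 1481 TPM in GOM and 615 to 1452 TPM in ULB. The libraries were made from whole tissue, in which fewer cells of a type and less RNA per cell cannot be told apart. The Hi-C libraries came, per the study's methods, from the fat-cell layer of fixed and centrifuged tissue, so RNA and chromatin may not report on the same mixture of cells. One replicate number stood apart: ALB, the liver's albumin gene, reached 6473 TPM in GOM replicate 10, 440 and 408 TPM in GOM replicates 2 and 9 and 1.5 to 14 TPM in the other 7, and it was highest in ULB too in replicate 10 (576 TPM, 4.89 to 157 TPM in the others). GOM replicate 10 also had the lowest share of its genome in compartment A, 45.4% against 48.4% to 51% in the other 9 GOM samples. Of the RNA-seq libraries, 3 of GOM and 2 of ULB had a Q30 share of bases below 89%.

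A PCG entered the test if 80% or more of the samples of one depot had it above 0.5 TPM, and it was called at a Benjamini-Hochberg adjusted p under 0.05 by edgeR together with a difference of over 1.5-fold. Of 14098 such PCGs, 1383 (9.81%) were called higher in GOM and 869 (6.16%) higher in ULB. With library totals in place of TMM scaling, which moved the median log2 difference of all PCGs by 0.117, the calls became 1789 and 688, and the share of calls higher in GOM rose from 61.4% to 72.2%. In 332 PCGs (2.35%) every GOM sample lay above every ULB sample, and in 146 (1.04%) the reverse held. Log2 differences below are GOM over ULB, each with its standard error (SE) and the adjusted p over all PCGs tested by edgeR. A gene list was read beside these shares and beside the median of all PCGs, 0.0074, and no list was tested as a set. Of 688 genes tested from 47 lists, 136 were called higher in GOM and 142 higher in ULB.

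Genes of mesothelium and of visceral mesoderm took most of the widest differences. Of 10 mesothelial genes tested, 7 were higher in GOM and 2 higher in ULB, with a median log2 difference of 5.21. Of 13 transcription factors of visceral lineage, 12 were higher in GOM and 0 lower, with a median of 6.73. WT1 encodes a zinc finger factor of mesothelium, kidney and gonad. Its level was 21.9, 48.2 and 181 TPM in the lowest, median and highest GOM sample and 0, 0.0144 and 1.71 TPM in ULB, and the groups did not overlap. The log2 difference was 7.77 (SE 0.65, adjusted p = 5.3e-09). BNC1, basonuclin 1, another zinc finger factor of this epithelium, ran from 5.08 to 45.8 TPM in GOM, with a median of 13.6. It was at 0 in 9 of 10 ULB samples and at 0.0705 TPM in the other, 4 counts in all, so the fitted log2 difference of 10.38 (SE 0.63, adjusted p = 3.4e-11) rests on a near-absent baseline. UPK1B, a uroplakin of epithelial membranes, stood at 23.1 to 171 TPM in GOM and at 0 to 0.566 TPM in ULB (log2 difference 8.69, SE 0.47, adjusted p = 7.1e-12). CDH1, which encodes the epithelial adhesion protein E-cadherin, and the keratins KRT7 and KRT8 were higher in GOM without overlap, by 5.29, 6 and 5.13. SLPI, a protease inhibitor, and DES, the muscle filament desmin, are the pair of listed genes that were higher in ULB (-1.09 and -1.21, the latter lost without the libraries of low Q30 or without GOM replicate 10), and KRT18 did not pass (log2 difference -0.77, adjusted p = 0.643).

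Promoter sequences are shown for 4 genes on which the depot difference turned, WT1 and BNC1 for the omentum and EN1 and IRX1 for the backfat. Each runs 5′ to 3′ on the strand of the gene, from 250 bases before to 50 bases after its start in the pig genome Sscrofa11.1 (RefSeq sequence), and capitals mark a GC box (GGGCGG, or CCGCCC on the other strand), the site bound by Sp1-type factors.
WT1, ENSSSCG00000013316, chr2:28411217-28411516, plus strand: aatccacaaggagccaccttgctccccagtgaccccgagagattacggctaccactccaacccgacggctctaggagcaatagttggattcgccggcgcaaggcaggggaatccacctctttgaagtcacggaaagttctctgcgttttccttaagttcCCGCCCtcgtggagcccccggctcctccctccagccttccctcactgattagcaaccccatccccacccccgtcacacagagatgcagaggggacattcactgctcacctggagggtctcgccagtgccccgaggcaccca
BNC1, ENSSSCG00000001798, chr7:51650929-51651228, plus strand: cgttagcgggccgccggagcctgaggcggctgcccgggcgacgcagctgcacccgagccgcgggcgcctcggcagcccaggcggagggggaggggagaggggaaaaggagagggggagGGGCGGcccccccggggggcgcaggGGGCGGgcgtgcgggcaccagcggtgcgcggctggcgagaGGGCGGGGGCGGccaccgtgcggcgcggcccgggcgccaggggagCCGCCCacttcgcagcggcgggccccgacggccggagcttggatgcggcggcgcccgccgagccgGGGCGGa
EN1, ENSSSCG00000015715, chr15:24408328-24408627, minus strand: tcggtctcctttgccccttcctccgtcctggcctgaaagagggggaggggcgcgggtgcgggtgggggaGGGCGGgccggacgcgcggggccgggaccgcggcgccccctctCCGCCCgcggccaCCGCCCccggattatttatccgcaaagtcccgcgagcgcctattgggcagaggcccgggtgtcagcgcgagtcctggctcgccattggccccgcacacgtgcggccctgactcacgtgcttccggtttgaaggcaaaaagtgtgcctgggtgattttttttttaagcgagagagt
IRX1, ENSSSCG00000034884, chr16:77701040-77701339, minus strand: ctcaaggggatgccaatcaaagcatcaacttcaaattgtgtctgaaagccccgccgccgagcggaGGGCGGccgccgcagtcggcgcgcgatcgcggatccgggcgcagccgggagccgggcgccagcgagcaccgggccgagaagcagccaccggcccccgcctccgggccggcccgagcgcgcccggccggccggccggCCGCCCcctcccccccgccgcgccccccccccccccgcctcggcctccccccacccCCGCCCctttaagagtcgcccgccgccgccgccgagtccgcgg
The share of G and C was 60.3% in WT1, 83.3% in BNC1, 68% in EN1 and 79.7% in IRX1, with 15, 46, 33 and 47 CpG dinucleotides, and held 1, 6, 3 and 3 GC boxes. Over 13562 promoters of the same length the medians were 61% and 19 CpG dinucleotides, and 58.2% held a GC box. None of the 4 held the TATA box letters TATAAA or TTTATA, which 8.93% of all promoters did. These counts describe the windows, and no binding was measured.

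Further regulators of the visceral mesoderm were separated in the same way. GATA5, a factor of endoderm and heart mesoderm, ran from 6.12 to 49.5 TPM in GOM and was at or below 0.11 TPM in ULB, where 7 of 10 samples had 0 counts. BARX1, a homeobox gene of the stomach wall, was at 7.67, 12.9 and 21.2 TPM in GOM and at or below 0.21 TPM in ULB. TCF21, needed for the fibroblasts of visceral organs, was at 4.9 to 14.2 TPM in GOM and at or below 0.199 TPM in ULB. The log2 differences were 9.25, 8.19 and 7.11, with adjusted p of 3.4e-11, 1.4e-12 and 3.4e-11. HAND2 (10.2 to 39.5 TPM in GOM, at most 0.627 TPM in ULB), ISL1 (2.65 to 23 TPM, at most 0.156 TPM) and TLX1 (0.359 to 2.03 TPM, at most 0.0977 TPM), which pattern heart, hindlimb and spleen, were higher in GOM by 6.78, 6.73 and 5.45. No sample of ULB reached the lowest GOM sample of any of these 6 genes. Among genes with a mean of at least 5 TPM in GOM and no overlap, the 12 widest differences also included CRB2, a cell polarity gene (9.36), SERPINE3 (9.08), the endocytic receptor LRP2 (6.62) and COL22A1 (6.58).

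**Figure D1:**
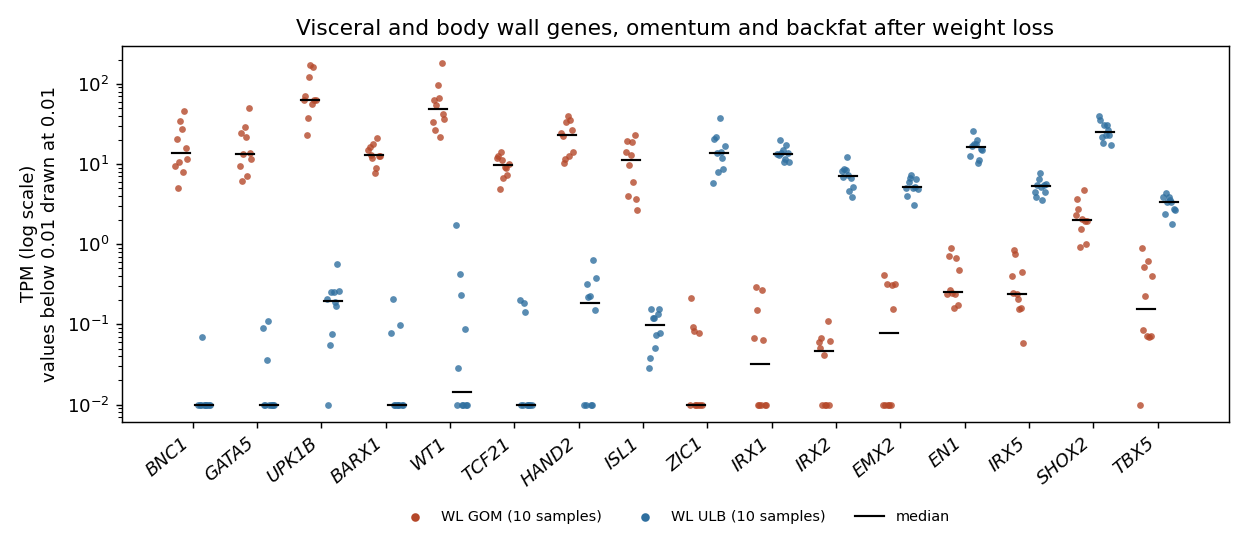
Level of 8 genes higher in GOM (left) and 8 higher in ULB (right) in each of 10 WL GOM and 10 WL ULB samples, in TPM on a log axis, where values below 0.01 are drawn at 0.01 and black bars are medians. In all 16 genes the samples of the depots do not overlap, and the GOM level of WT1 runs from 21.9 to 181 TPM against 0 to 1.71 TPM in ULB.

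Backfat carried the mirror image. Of 15 body wall transcription factors tested, 11 were higher in ULB and 0 higher in GOM, with a median log2 difference of -3.14. ZIC1, a zinc finger gene of the dorsal body wall that is also used as a marker of brown fat, was at 5.75, 13.9 and 37.5 TPM in ULB and at 0 to 0.213 TPM in GOM (log2 difference -8.13, SE 0.50, adjusted p = 3.4e-11). EN1, engrailed 1, a homeobox gene of the trunk skin and dermis, was at 10.2, 16.2 and 25.8 TPM in ULB and at 0.161, 0.256 and 0.888 TPM in GOM. Every ULB sample lay above every GOM sample, and the log2 difference was -5.34 (SE 0.28, adjusted p = 4.9e-12). IRX1 and IRX2, neighbours in one Iroquois cluster, reached medians of 13.4 and 7.06 TPM in ULB and stayed at or below 0.289 and 0.111 TPM in GOM, a log2 difference of -7.40 and -7.33. IRX3 and IRX5, of the other cluster, were lower in GOM by a smaller margin, at -2.51 and -3.93. SHOX2 and TBX5, genes of limb and shoulder, differed by -3.54 and -3.48, and MSX2, a target of BMP signals in skin and bone, by -3.14. Genes outside the lists were also among the 12 widest differences higher in ULB by the same measure: the homeobox gene EMX2 (-4.93), the matrix gene THBS4 (-5.94) and FGF10, a growth factor for fat-cell precursors (-5.88). FGF10 was at 19.3 to 64.2 TPM in ULB and at 0.11 to 1.61 TPM in GOM.

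HOX genes, which record position along the body axis, went both ways, also within the HOXA cluster. Of 23 tested, 9 were higher in GOM and 9 higher in ULB. HOXB5 and HOXB8 were higher in GOM, by 2.73 and 2.53, as was HOXA2 (2.54). HOXC8 and HOXC9, of the thoracic trunk, were higher in ULB (-2.33 and -4.06), with HOXC9 at 3.01 to 10.3 TPM there and at 0 to 0.807 TPM in GOM. HOXD8 was the most abundant of those named, at 55.2, 81.1 and 98.8 TPM in ULB and 7.49, 12.3 and 20.7 TPM in GOM (log2 difference -2.55, SE 0.18, adjusted p = 3.7e-10). HOXA9 and HOXD10 were also higher in ULB (-1.98 and -2.04), though the samples overlapped.

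**Figure D2:**
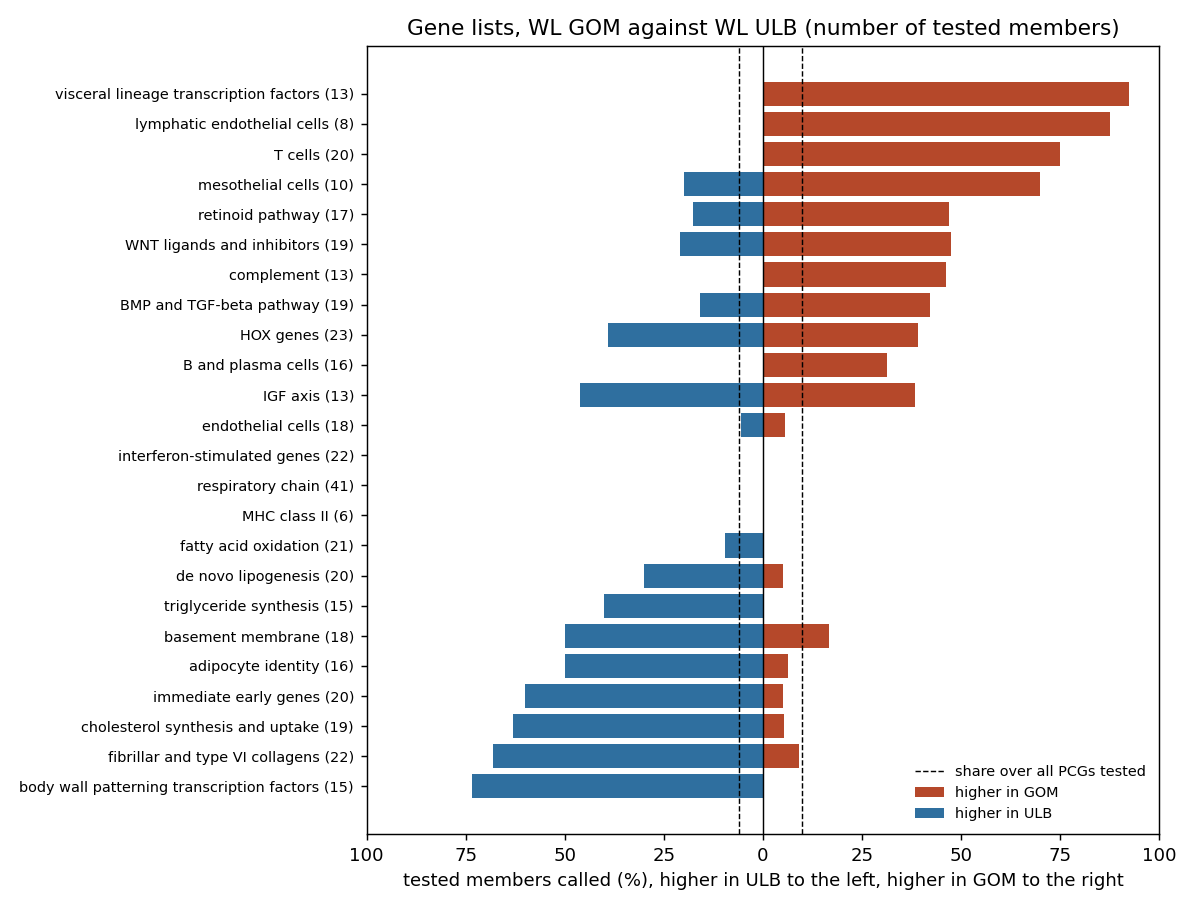
Percent of the tested members of 24 of the 47 gene lists that were called higher in GOM (bars to the right) or higher in ULB (bars to the left), with the number tested in parentheses and dashed lines at the shares over all PCGs, 9.81% and 6.16%. Lists of visceral factors, lymphatic vessels and T cells lie on the GOM side, and those of body wall factors, collagens and cholesterol synthesis on the ULB side.

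Transcripts of the fat-cell program were lower in GOM by a smaller margin. Of 16 adipocyte identity genes, 8 were higher in ULB and 1, RBP4, higher in GOM, with a median log2 difference of -0.67. FABP4, the carrier of fatty acids in the fat cell, was at 4625, 7250 and 10894 TPM in GOM and at 10155, 13995 and 22210 TPM in ULB. The groups overlapped at their edges, and the log2 difference was -0.95 (SE 0.19, adjusted p = 0.00057). PLIN1, the coat of the lipid droplet, ran from 259 to 1022 TPM in GOM and from 858 to 2198 TPM in ULB (log2 difference -1.16, SE 0.22, adjusted p = 0.00031). LEP, the gene of leptin, had medians of 265 and 727 TPM and differed by -1.23 (SE 0.20, adjusted p = 5.5e-05), and 509 TPM, the lowest ULB level, was passed by the highest GOM sample alone (538 TPM). PPARG and CEBPA, the leading regulators of fat-cell formation, differed by -0.71 and -0.81. ADIPOQ, the gene of adiponectin, did not pass (log2 difference -0.67, adjusted p = 0.0574), but did by DESeq2 and without the libraries of low Q30 (-0.85), and CIDEC, of droplet growth, did not pass (-0.09, adjusted p = 0.811). RBP4, the retinol carrier, was higher in GOM by 1.59 (adjusted p = 0.00617), a call lost without the libraries of low Q30 (1.25).

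Within lipid metabolism the widest difference was in SCD, the stearoyl-CoA desaturase that makes monounsaturated fatty acids. It had a median of 148 and a highest level of 522 TPM in GOM and was at 531, 2727 and 5188 TPM in ULB. No GOM sample reached the lowest ULB sample, though levels varied widely within both depots, and the log2 difference was -3.72 (SE 0.62, adjusted p = 8.4e-05). Of 20 genes of de novo lipogenesis, 6 were higher in ULB and 1 in GOM. ACLY, which supplies cytosolic acetyl-CoA, differed by -0.82, IDH1 and PGD, which supply NADPH, by -1.23 and -0.87, and FADS2, a desaturase of polyunsaturated fatty acids, by 0.75 in the other direction, a call lost without GOM replicate 10 (0.48). In triglyceride synthesis 6 of 15 genes were higher in ULB and 0 higher in GOM. PCK1, of glyceroneogenesis, had medians of 21.8 TPM in GOM and 120 TPM in ULB (-1.86, adjusted p = 0.00339). GPAT4, which starts glycerolipid assembly, was the 1 called gene of this list without overlap, at 48.7 to 130 TPM in GOM and 140 to 235 TPM in ULB. In fatty acid uptake 5 of 15 genes were higher in ULB, among them FABP3 (-1.59) and the lipase inhibitor ANGPTL4 (-1.31), and VLDLR, a lipoprotein receptor, was higher in GOM without overlap (1.08, SE 0.13, adjusted p = 8.9e-07).

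In cholesterol synthesis and uptake 12 of 19 genes were higher in ULB and 1 higher in GOM, with a median log2 difference of -0.71. LSS, which closes the sterol ring, ran from 9.11 to 24.4 TPM in GOM and from 27.9 to 53.2 TPM in ULB. The groups did not overlap, and the log2 difference was -1.36 (SE 0.15, adjusted p = 3.9e-07). SQLE, the squalene epoxidase, was also higher in ULB (-1.09). Lipolysis genes went both ways. LIPE, the hormone-sensitive lipase, and PRKAR2B, a regulatory subunit of protein kinase A, were higher in ULB (-0.84 and -1.21), and the receptors that inhibit lipolysis, ADRA2A (1.96) and PTGER3 (1.09), were higher in GOM. Among catecholamine receptors ADRA2B and ADRA2C were also higher in GOM, by 0.96 and 0.89, and ADRA1A and the melanocortin receptor MC5R were higher in ULB (-1.26 and -1.21). Insulin signalling gave AKT2, IRS1 and IRS2 higher in ULB, between -0.73 and -1.11, and the fructose carrier SLC2A5 (2.04) and SLC2A12 (1.03) higher in GOM.

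Few mitochondrial genes were called. In fatty acid oxidation 2 of 21 genes were called, UCP3 (-1.73) and ETFDH (-0.64), both higher in ULB. Of 41 genes of the respiratory chain 0 were called by edgeR and 0 by DESeq2, 6 had an unadjusted p below 0.05, and the median log2 difference was -0.08. For 12 mitochondria-encoded genes the 3 counts were each 0, with a median of -0.39.

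Collagen genes were mostly higher in ULB, and their remodelling enzymes less uniformly. Of 22 fibrillar and type VI collagens and partners, 15 were higher in ULB and 2 higher in GOM, with a median log2 difference of -0.95. COL1A1, the main chain of type I collagen, was at 22.8, 36.2 and 81.6 TPM in GOM and at 96.6, 188 and 395 TPM in ULB. COL1A2 ran from 134 to 315 TPM in GOM and from 584 to 1445 TPM in ULB. COL6A3, whose cleaved end is endotrophin, ran from 48.4 to 171 TPM and from 193 to 618 TPM. These 3 did not overlap, with log2 differences of -2.28, -1.91 and -1.92 and adjusted p of 3.8e-08, 4.1e-09 and 4.4e-08. THBS2 and COL6A6 were lower in GOM without overlap as well (-1.66 and -2.81). FN1, fibronectin, went against the rest (1.96, adjusted p = 0.00619), but its GOM samples spanned 65.6 to 2679 TPM and overlapped the 108 to 364 TPM of ULB. Of 18 basement membrane genes 9 were higher in ULB, among them COL4A1 and COL4A2 (-0.95 and -0.80), and 3 higher in GOM (1 without the libraries of low Q30, 2 without GOM replicate 10), led by LAMA3, a laminin chain of epithelia (1.62). Of 15 matrix metalloproteinases and inhibitors 6 were higher in ULB, 2 higher in GOM and 7 not called. MMP2 (49.1 to 214 TPM in GOM, 216 to 564 TPM in ULB, log2 difference -2), MMP14 (-0.90) and MMP27 (-4.65) were higher in ULB without overlap. The inhibitor TIMP1 (1.34) and the enzyme gene MMP23B (0.90) were higher in GOM.

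Fibroblast and progenitor genes split evenly, 5 of 18 each way. SFRP4, a WNT inhibitor, was at 81.7 to 196 TPM in ULB and 2.85 to 14 TPM in GOM (-4.36, SE 0.27, adjusted p = 3.9e-11), and APOD at 265 to 1044 TPM and 22.2 to 119 TPM (-3.34). PDGFRA, the receptor that marks fibroblastic progenitors, was higher in GOM, from 110 to 219 TPM with no ULB sample reaching the lowest of these (1.18, SE 0.14, adjusted p = 6.1e-07), while the mural cell receptor PDGFRB was higher in ULB (-0.91). PI16, of the adventitial progenitors, was higher in GOM (1.79).

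**Figure D3:**
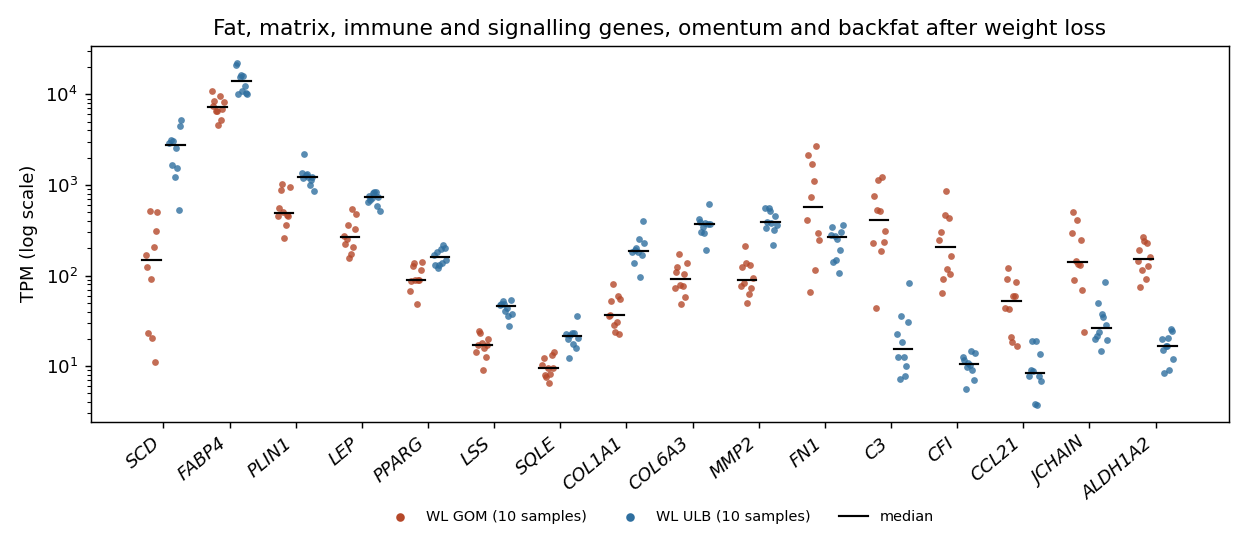
Level of 16 genes of fat cells, cholesterol synthesis, matrix, complement, lymphatic vessels, plasma cells and retinoid synthesis in each of 10 WL GOM and 10 WL ULB samples, in TPM on a log axis with medians as black bars. COL1A1 runs from 22.8 to 81.6 TPM in GOM and from 96.6 to 395 TPM in ULB, and FN1 overlaps.

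Secreted signals differed in kind. Of 19 WNT ligands and inhibitors, 9 were higher in GOM and 4 higher in ULB. WNT16 was at 10.6, 29.8 and 107 TPM in GOM and 0.604, 1.19 and 2.07 TPM in ULB (5.33, SE 0.47, adjusted p = 1.2e-08). RSPO1, which amplifies WNT signals at the receptor, and the ligands WNT5A, WNT5B and WNT2B were higher in GOM without overlap, by 4.42, 3.44, 3.31 and 3.13. Of 19 genes of the BMP and TGF-beta pathway, 8 were higher in GOM and 3 in ULB. The ligands BMP3 (6.41 to 58.6 TPM in GOM, at most 0.834 TPM in ULB) and BMP7 (2.69 to 57.1 TPM, at most 0.658 TPM) led, at 6.31 and 5.99, with the BMP antagonist GREM1 at 11.8 to 59.7 TPM against 0.135 to 1.77 TPM (5.08, SE 0.33, adjusted p = 1.1e-10). BAMBI, a decoy receptor, was higher in GOM (2.58), and FST, follistatin, higher in ULB (-1.37).

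Of 17 retinoid genes 8 were higher in GOM and 3 higher in ULB, and the enzymes and carriers of one pathway fell on both sides. ALDH1A2, the enzyme that makes retinoic acid, was at 75.6, 152 and 266 TPM in GOM and at 8.28, 16.5 and 25.4 TPM in ULB (3.34, SE 0.24, adjusted p = 5.7e-10). RDH10, which feeds it with retinal, did not overlap either, at 21.1 to 38.2 TPM against 8.69 to 15.1 TPM (1.28). CRABP2, which carries retinoic acid to the nucleus, and CYP26B1, which degrades it, were higher in ULB. CRABP2 was at 7.53, 21.7 and 35 TPM in ULB and at 0, 0.18 and 1.02 TPM in GOM (-6.16, SE 0.47, adjusted p = 1.1e-09), and CYP26B1 differed by -2.62 with overlap. Among 15 adipokines 5 were higher in GOM and 4 in ULB. RARRES2, the gene of chemerin, ran from 558 to 1228 TPM in GOM and from 126 to 341 TPM in ULB (1.72, SE 0.21, adjusted p = 1e-06), and LCN2, lipocalin 2, from 18 to 216 TPM and from 3.33 to 17.1 TPM (3.37). The IGF axis was split, with 5 of 13 genes higher in GOM and 6 higher in ULB (3 and 5 without the libraries of low Q30). Among them IGF1, GHR and IGFBP5 were higher in ULB (-0.76, -0.76 and -1.10) and IGFBP2 higher in GOM (0.95). HSD11B1, which regenerates glucocorticoid, and PGR, the progesterone receptor, were higher in GOM (0.59 and 1.22), the former lost by DESeq2 and without GOM replicate 10 (0.58 and 0.53).

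T-cell and plasma-cell genes were higher in the omentum. Of 20 T-cell genes, 15 were higher in GOM and 0 higher in ULB, with a median log2 difference of 1.16. CD3E, of the T-cell receptor complex, ran from 3.74 to 13.8 TPM in GOM and 2.74 to 5.21 TPM in ULB (1.16, SE 0.21, adjusted p = 0.00023). CD2 had medians of 23.6 and 9.5 TPM (1.38), and IL7R, the receptor for interleukin 7, separated the depots without overlap, at 16.1 to 38.5 TPM against 1.62 to 14.5 TPM (1.39, SE 0.26, adjusted p = 0.00029). Among 16 B-cell and plasma-cell genes 5 were higher in GOM, led by JCHAIN, which joins secreted IgA and IgM (medians 139 and 26.2 TPM, 2.62, SE 0.43, adjusted p = 7.4e-05), and MZB1 (1.79). The mature B-cell genes MS4A1 and CD79B were at a median of 0.7 and 0.834 TPM in GOM and 0.684 and 0.625 TPM in ULB, and neither passed (adjusted p = 0.964 and 0.478).

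Of lymphatic vessel genes, 7 of 8 were higher in GOM and 0 higher in ULB, with a median of 1.15. CCL21, the chemokine that draws T cells and dendritic cells into lymphatics, was at 16.8, 51.9 and 121 TPM in GOM and at 3.76, 8.31 and 19 TPM in ULB (2.51, SE 0.38, adjusted p = 2.6e-05), and FLT4, a receptor of lymphatic growth factors, had medians of 11.6 and 4.42 TPM (1.61). PROX1, the factor that defines these cells, did not pass (0.67, adjusted p = 0.0848). Of 18 blood vessel genes 1 was called higher in each depot, and PECAM1, on all endothelium, was at 303 to 513 TPM in GOM and 341 to 522 TPM in ULB (-0.03, adjusted p = 0.89).

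Complement held some of the widest differences outside development, with 6 of 13 genes higher in GOM and 0 higher in ULB. CFI, the protease that cleaves C3b, ran from 63.6 to 867 TPM in GOM and from 5.58 to 14.7 TPM in ULB (4.79, SE 0.45, adjusted p = 3.5e-08). C3, on which all complement routes meet, had medians of 413 and 15.5 TPM, and 1 GOM sample at 43.8 TPM lay within the ULB range, whose highest was 82 TPM (4.35, SE 0.58, adjusted p = 5e-06). CFB, of the alternative route, did not overlap (3.70). Of 18 resident macrophage genes 3 were higher in GOM (1 without the libraries of low Q30) and 1 higher in ULB, and CD68, C1QA, MRC1 and CD163 did not pass (adjusted p = 0.992, 0.426, 0.0681 and 0.452). Of 22 interferon-stimulated genes and 6 class II MHC genes, 0 were called by edgeR and 0 by DESeq2, with 4 and 0 at an unadjusted p below 0.05. Of 26 chemokine and cytokine genes 6 were higher in ULB, 2 (CCL21 and IL18, 2.51 and 0.96) higher in GOM and 18 not called, with a median log2 difference of -0.18. Those higher in ULB included IL6 (-1.51), CXCL2 (-1.28, lost without the libraries of low Q30), CCL2 (-1.05) and CSF1 (-1.03).

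Immediate early genes, which cells induce within minutes of handling or stimulation, were also higher in ULB, 12 of 20 against 1 higher in GOM, with a median log2 difference of -1.01. FOSB ran from 8.87 to 40.6 TPM in GOM and from 28.3 to 503 TPM in ULB (-2.87, SE 0.45, adjusted p = 4.1e-05), and NR4A1 and EGR1 differed by -1.94 and -1.68. IL6, CXCL2, CCL2 and CSF1 were higher in the same depot, and the part of sampling in either was not tested. Lists of genes of other tissues were summed as well. Skeletal muscle genes summed to 12.3 to 51.3 TPM in GOM and 17.2 to 130 TPM in ULB, and pancreatic genes to at most 6.82 and 8.03 TPM. Skin epithelium genes summed to 10.6 to 73.7 TPM in GOM and 1.87 to 5.56 TPM in ULB, higher in GOM without overlap. The gut and liver list had a median sum of 316 TPM in GOM and 375 TPM in ULB. It summed to 9434 TPM in GOM replicate 10, the next GOM sample being at 984 TPM. In ULB replicate 10 it summed to 1023 TPM, the next being at 430 TPM. Its 1 call, TF (transferrin, log2 difference 2.37, adjusted p = 0.0222), was lost without GOM replicate 10, a setting tried after seeing the data.

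The A-B index, which is above 0 in compartment A, was compared next. Of 113298 bins of 20 kb on the 18 autosomes, 10433 (9.21%) had a higher index in GOM and 11516 (10.2%) a higher index in ULB, by more than 0.75 and with an adjusted p below 0.05 (limma). Full switches were rare: 429 bins (0.379%) lay in A in more than 80% of GOM samples and in B in more than 80% of ULB samples, and 370 bins (0.327%) the reverse. The switched bins made 221 and 225 runs, and the longest reached 280 kb on chromosome 4 for GOM and 220 kb on chromosome 9 for ULB.

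WT1 sat in one of the longer runs. Its start bin, chr2:28400001-28420000, had an index of 1.69, 2.63 and 4.69 in the lowest, median and highest GOM sample and of -1.87, -1.2 and -0.07 in ULB, so it was A in 10 of 10 GOM samples and in 0 of 10 ULB samples. The difference was 3.77 (SE 0.30, adjusted p = 5.1e-09, limma), and the switch extended over 12 bins, 240 kb, from 28300001 to 28540000. EN1 was the counterpart. Its bin, chr15:24400001-24420000, was at 0.69, 1.78 and 3.02 in ULB and at -0.91, -0.22 and 0.11 in GOM, in A in 10 of 10 and 1 of 10 samples, and differed by -2.22 (SE 0.25, adjusted p = 5.5e-07) over a switched run of 40 kb. Further genes called higher in GOM began in bins that were A there and B in ULB, among them CDH1 (index difference 1.33), the dermatopontin gene DPT (1.47), the receptor of vasoactive intestinal peptide VIPR2 (2.10) and the WNT5A receptor ROR2 (1.54). In the ULB direction MSX2 (-1.6), PHGDH, the first enzyme of serine synthesis (-2), COL25A1 (-0.87), NDNF (-0.99) and STC1 (-0.84) joined EN1, of which NDNF and STC1 lost their call in expression without the libraries of low Q30. Of 20 tested genes in bins switched to A in GOM, 14 were called higher in GOM, 2 higher in ULB (KERA and VGLL3, the latter named after its values were seen) and 4 were not called. Of 22 in bins switched to A in ULB, 6 were called higher in ULB, 1 higher in GOM (ANKRD22) and 15 were not called.

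Most depot genes did not switch compartment. BMP3 began in a bin at -0.06 to 2.46 in GOM and -2.84 to -1.34 in ULB (2.73, SE 0.27, adjusted p = 1.1e-07), and was A in 8 of 10 GOM samples. FGF10 lay in B in all 20 samples, but deeper in GOM, at -3.5 to -2.53 against -1.89 to -0.32 in ULB (-2.22, SE 0.21, adjusted p = 4.8e-08). ZIC1 (-1.91) was also in B in most samples of both depots, and ALDH1A2 (1.99) in A in all 20. FABP4, in A in 9 of 10 GOM and 10 of 10 ULB samples, differed by -2.68, from -0.14 to 1.77 in GOM and 2.65 to 4.32 in ULB (SE 0.25, adjusted p = 3.7e-08), although its expression differed by less than 1 on the log2 scale. GATA5, whose expression was absent from most ULB libraries, lay in A in all 20 samples and its index difference did not pass (0.56, adjusted p = 0.0931), and the same held for CRABP2 (-0.07, adjusted p = 0.835) and COL1A1 (0.22, adjusted p = 0.372).

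**Figure D4:**
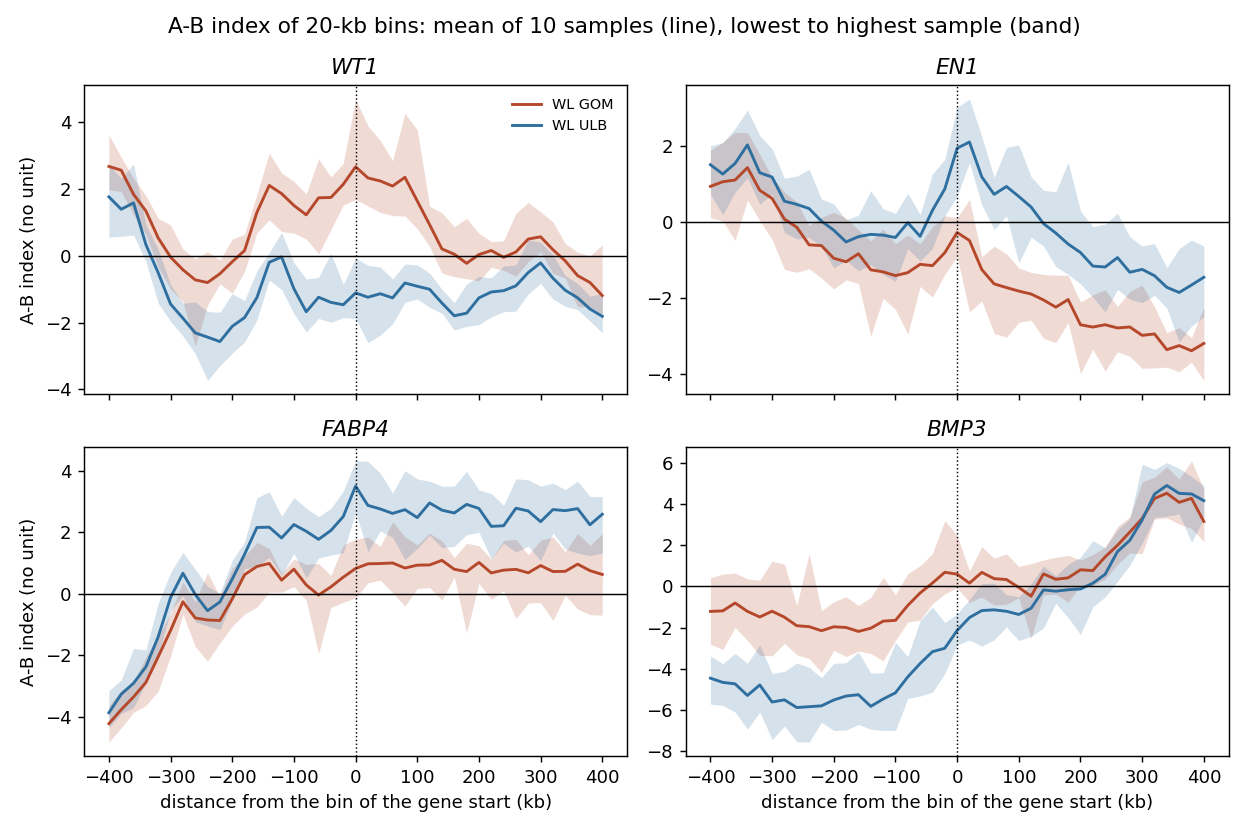
A-B index of 20-kb bins within 400 kb of the bins that hold the starts of WT1, EN1, FABP4 and BMP3, with lines for the mean of 10 WL GOM and 10 WL ULB samples and bands from the lowest to the highest sample. The index is without unit, values above 0 are compartment A, and at WT1 the GOM and ULB bands lie on opposite sides of 0.

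Expression and index calls were then set side by side, gene by gene, as a description. Of 1051 genes called higher in GOM with a start in a bin, 215 (20.5%) lay in bins with a higher index in GOM and 32 (3.04%) in bins with a higher index in ULB. Of 696 genes called higher in ULB, 139 (20%) lay in bins higher in ULB and 20 (2.87%) in bins higher in GOM. Among 8903 genes not called the shares were 3.94% and 5.46%. In 265 genes whose GOM samples all lay above all ULB samples, 35.5% were in bins higher in GOM and 1.13% in bins higher in ULB. The larger part of the called genes, 804 and 537, lay in bins without a called difference.

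H3K27ac enhancer regions had been called by the authors on the pool of each depot, 4 GOM and 2 ULB samples, so that a difference has no replicate check and no test is given. GOM had 22783 regions and ULB 25311, of which 1442 and 1652 were super-enhancers, stretches of unusually high signal. Of the GOM regions 77.3% overlapped a ULB region by at least 1 base, and of the ULB regions 74.2% overlapped a GOM region. With an overlap of at least 50% of both regions required, the shares became 38.4% and 34.6%. The start of WT1 lay in a GOM super-enhancer of 81.8 kb (chr2:28387800-28469599, signal 4.24 times the input) and in no ULB region. BNC1 and GATA5 began in GOM super-enhancers of 182 and 36.4 kb, and TCF21, ISL1, BMP3, RSPO1 and ALDH1A2 in GOM regions, with no ULB region within 10 kb of any of these 7. EN1 began in a ULB super-enhancer of 35.2 kb (chr15:24389200-24424399, 4.3 times the input), and IRX1, IRX2, IRX3, IRX5, FGF10 and SFRP4 in ULB regions, with no GOM region within 10 kb. FABP4 was covered in both, by 10.2 kb in GOM at 2.67 times the input and by a super-enhancer of 37 kb in ULB at 3.66 times. BARX1 went the other way, with its start in a ULB region of 7.6 kb and none in GOM, although its transcripts were near 0 in ULB, and C3, COL1A1 and CRABP2 began in regions of both pools.

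Genes were also counted by their calls. Of 1090 genes called higher in GOM, 24% began in a region of the GOM pool alone and 4.4% in one of the ULB pool alone, and of 725 called higher in ULB, 5.52% and 15.7%. Over all 11018 PCGs tested with a position the shares were 10.7% and 8.93%.

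**Figure D5:**
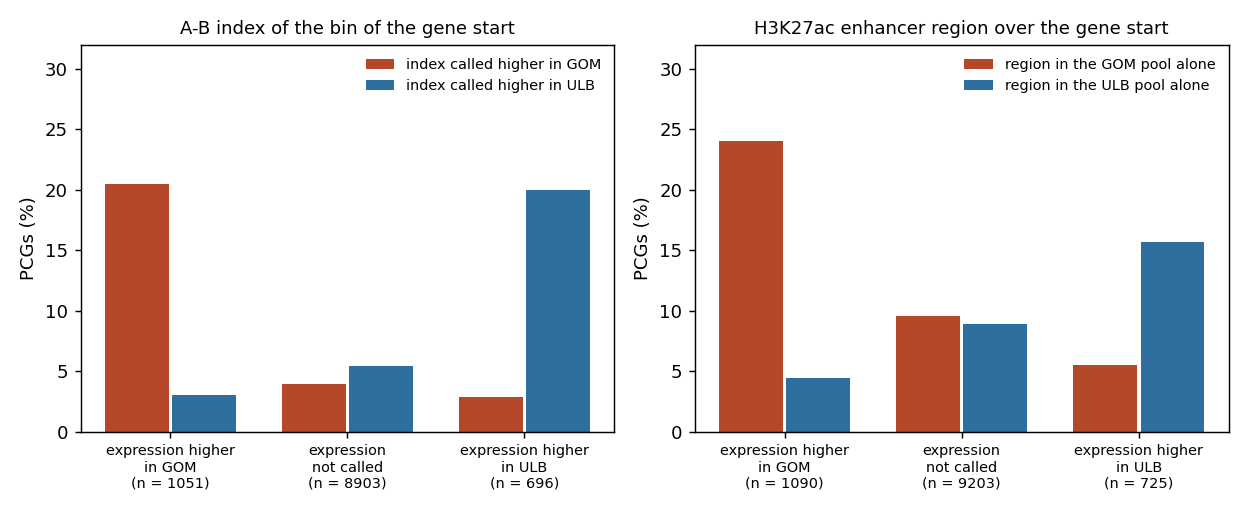
Percent of PCGs whose start lies in a 20-kb bin with a called A-B index difference (left) or in an H3K27ac enhancer region found in the pool of one depot alone (right), for genes called higher in GOM, not called, and called higher in ULB. Of the genes called higher in GOM, 20.5% lay in bins higher in GOM and 24% in regions of the GOM pool alone.

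Whether the depot difference itself was another after weight loss than under obesity was asked with the interaction of depot and group, which uses the WG samples and shares no library between the sides. Of 14204 PCGs, the GOM over ULB ratio was higher in WL than in WG for 107 (0.753%) and lower for 45 (0.317%). Without the libraries of low Q30 these counts were 27 and 15, without GOM replicate 10 they were 68 and 37, and with the replicate number as a block 213 and 182. Among positional genes the interaction was not called for WT1 (1.94, adjusted p = 0.429), EN1 (0.19), IRX1 (0.76) or ZIC1 (0.77), and WT1 was higher in GOM by 5.83 in WG. Of 13 visceral factors 1 was called, ISL1, with a log2 difference of 6.71 in WL and 4.68 in WG (interaction 2.03, adjusted p = 0.025), a call lost without the libraries of low Q30 (2.12, adjusted p = 0.0677). In the mesothelial list 1 was called, UPK1B, at 8.67 in WL and 5.99 in WG (interaction 2.68), and this call was lost too without those libraries (2.47, adjusted p = 0.229). UPK1B had a median of 0.274 and a highest level of 10.4 TPM in WG ULB, and its lowest WG GOM sample was at 0 TPM.

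Fat-cell genes were read next. Of 16 adipocyte identity genes the interaction was called for 1, PLIN1, and 4 had an unadjusted p below 0.05 by edgeR. In the same fit 1 of the 16 was higher in ULB in WG and 7 in WL. The groups differ in sample number, so these 2 counts do not test a change. The depot difference of PLIN1 was -1.18 in WL and -0.25 in WG (interaction -0.93, SE 0.23, adjusted p = 0.0194, and 0.052 without the libraries of low Q30). Its ULB level had a median of 1228 TPM in WL and 762 TPM in WG, and its GOM level 485 and 626 TPM. For FABP4 the interaction in expression was -0.79 (SE 0.32) and did not pass (adjusted p = 0.323), but that in the A-B index did. The depot difference in index was -2.68 in WL and -0.82 in WG (interaction -1.85, SE 0.27, adjusted p = 1.7e-05, limma), and it stayed between -1.74 and -1.96 under the 4 alternatives tried. The mean index of GOM was 0.82 in WL and 1.70 in WG, and that of ULB 3.49 and 2.53.

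The interaction genes with the largest size were not of one kind. SCEL, sciellin, of stratified epithelia, was at 3.99 to 27 TPM in WL GOM and at most 0.703 TPM in WL ULB, with medians of 7.37 and 1.66 TPM in WG (interaction 3.27, SE 0.61, adjusted p = 0.00057). PEBP4 and SLC2A5 were higher in GOM in WL (2.22 and 2.01) and higher in ULB in WG (-0.89 and -1.15), with interactions of 3.11 and 3.16. The medians of SLC2A5 were lower in WL in both depots, at 2.17 TPM in GOM and 0.786 TPM in ULB, against 10.1 and 15.9 TPM in WG. The macrophage genes CD163 and MS4A7 were higher in GOM in WG (1.26 and 1.02) and not called in WL (-0.32 and -0.53), with interactions of -1.58 and -1.55 (adjusted p = 0.0122 and 0.024), and without the libraries of low Q30 these were -1.62 and -1.57 and no longer passed (adjusted p = 0.0681 and 0.122). CD163 had medians of 128 TPM in GOM and 134 TPM in ULB after weight loss and of 256 and 83.6 TPM under obesity. Of liver-expressed genes in this set, TTR and TDO2 rested on GOM replicate 10, in which ALB was highest: without it their interactions were 0.83 and 1.88 (adjusted p = 0.886 and 0.325). For ZNF599 the levels in WG ULB had a median of 2.63, a mean of 22.5 and a highest value of 454 TPM. A run without its highest samples was not made.

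GOM minus ULB in the A-B index was higher in WL than in WG in 3698 bins (3.26%) and lower in 1359 (1.2%), and the surplus depended on scaling: with the index of each sample brought to one distribution the counts were 1520 and 1356. WT1 and EN1 were not among the called bins (0.90, adjusted p = 0.0891, and 0.03, adjusted p = 0.969). HAND2, in a bin whose depot difference was 2.60 in WL and 1.63 in WG, passed as deposited (0.97, adjusted p = 0.019, limma). It did not pass after that scaling (0.59, adjusted p = 0.193) or without GOM replicate 9 (0.77, adjusted p = 0.0751).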

How the data were processed

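RNA-seq libraries were made from ribosomal RNA-depleted total RNA with a stranded kit. The authors quantified them with kallisto 0.43.0 on Sscrofa11.1 (Ensembl release 102) and deposited expected counts and TPM, summed by gene with tximport. The deposited A-B index is a score that the authors computed per 20-kb bin from balanced, BNBC-normalized Hi-C matrices. The deposited enhancer tables hold the ROSE signal of H3K27ac and input reads pooled by depot (BWA 0.7.15, SAMtools 1.3.1, SICER). Each table had 9 further columns that match no label, and these were not used here.

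Expected counts were rounded and tested with edgeR 4.0.16 (TMM, quasi-likelihood, Benjamini-Hochberg), DESeq2 1.42.0 being an alternative, and the index with limma 3.58.1, in R 4.3.3. Bins called differed by over 0.75. Tests were checked on data simulated with independent samples from the distributions that they assume. That check does not cover shared pigs, outlying samples or correlated neighbouring bins. The index has no counts, so its depth is unknown. Replicates of one depot are separate pigs per the study's methods, and both depots were taken from each carcass. The members, the 47 lists and the comparisons were chosen with earlier results of these data known. Named genes were the 12 widest called, non-overlapping differences each way at a mean of 5 TPM or more, up to 8 called members per list and members given as not called, cell type markers, 6 interaction genes each way, and called genes in switched bins. Genes without a paired symbol entered the tests and the counts over all PCGs, 11906 of the 14098 tested having one. They were not named, listed or given a position.

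Some withheld genes and sequences are not reported here.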

Additional observations from a re-analysis of the deposited data

Results flagged for a closer look

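Single samples stood apart from the other 9 of their group, by Dixon's test at 95%, in 28 of 308 groups of expression values and in 4 of 40 groups of index values, where chance alone flags about 1 in 20. GOM replicate 10 held the highest level of TTR (304 TPM), TDO2 (27.3 TPM) and FADS2 (38 TPM) in GOM and the lowest share of bins in compartment A (45.4%). ULB replicate 10 held the highest level of TTR (25.3 TPM), TF (93.7 TPM) and CFB (15.4 TPM) in ULB and the highest index at ZIC1 (1.05). GOM replicate 9 had the highest index at WT1 (4.69) and BMP3 (2.46) and the lowest COL1A2 (134 TPM).

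Low levels set some of these flags. In ULB the highest samples of BNC1 (0.0705 TPM), CRB2 (0.115 TPM), UPK1B (0.566 TPM), BARX1 (0.21 TPM) and WT1 (1.71 TPM) stood apart from samples at or near 0, as did those of ZIC1 (0.213 TPM) and COL25A1 (0.586 TPM) in GOM. Other high samples of ULB were found for PEBP4 (11.6 TPM), LAMA3 (16 TPM), PTGER3 (46.4 TPM), IGFBP2 (57.4 TPM), MMP14 (559 TPM), PLIN1 (2198 TPM) and COL25A1 (2.64 TPM). Low samples of ULB were found for KRT8 (0.791 TPM), IL7R (1.62 TPM), CD163 (35.9 TPM), PGD (97.3 TPM) and COL4A1 (318 TPM), and for the index at NDNF (-0.6). In GOM they were found for CD79B (0.17 TPM) and GPAT4 (48.7 TPM).

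The depot difference was called as unlike between WL and WG, by the interaction term of edgeR, for 12 genes named for their size. Of these 12 calls, 9 were lost without the libraries of low Q30 and 4 without GOM replicate 10. The log2 ratio of GOM over ULB was higher in WL than in WG for SCEL (3.27, SE 0.61), ZNF599 (3.24, SE 0.91), TTR (3.18, SE 0.75), SLC2A5 (3.16, SE 0.55), PEBP4 (3.11, SE 0.46) and TDO2 (2.95, SE 0.79). It was lower in WL than in WG for PTX3 (-2.34, SE 0.62), ESM1 (-1.81, SE 0.46), CD163 (-1.58, SE 0.37), SLC25A34 (-1.55, SE 0.40), MS4A7 (-1.55, SE 0.39) and VIT (-1.47, SE 0.40). The sign of these values is that of the change in the ratio and does not give the size of the depot difference, which for PTX3 was -2.51 in WL and -0.16 in WG and for ZNF599 0.35 and -2.90.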

How the results depend on the processing

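Among the 154 named genes no call turned to the other depot in any alternative run. The balance of called bins did turn: 10433 were higher in GOM and 11516 in ULB, against 11100 and 10884 after quantile normalization and 11185 and 10231 without GOM replicate 10. A fold change limit of 2 left 850 PCGs higher in GOM and 428 higher in ULB, and 87 list members higher in ULB. The interaction in expression moved most: without the libraries of low Q30 it called 27 and 15 PCGs, with 9 of the 12 named genes no longer passing. Without GOM replicate 10, chosen after seeing the data, it called 68 and 37. Quantile normalization left 1520 bins in which GOM minus ULB was higher in WL than in WG. Without GOM replicate 9 the interaction in the index called 2461 and 762 bins, and without replicate 10 it called 4330 and 1095. A limit of over 70% of samples gave 878 and 824 switched bins. An overlap of at least 50% of both regions lowered shared enhancers to 38.4% of GOM and 34.6% of ULB regions. Causes were not tested, except that stricter limits leave fewer calls by construction.

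The depots came from the same pigs, but no source used here says that a number marks a pig, and same-numbered samples did not all correlate above 0.1. Correlations of their deviations ran from 0.02 to 0.59 in RNA-seq and from -0.12 to 0.37 in Hi-C, with medians of 0.16 and 0.21 (-0.04 and -0.02 between other numbers), 8 of 10 above 0.1 and 3 of 10 best with their own number in each. With the number as a replicate block 1408 and 934 PCGs, 10734 and 11840 bins, 213 and 182 interaction PCGs and 5094 and 1912 interaction bins were called, and FN1 and DES, with the interactions of TTR, TDO2 and ZNF599, no longer passed, while ADIPOQ did (-0.69).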

Other observations

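Further gene groups were read the same way. Of 7 granulocyte and mast cell genes 3 were higher in GOM and 0 higher in ULB, with a median log2 difference of 1.05. Of 18 smooth muscle and pericyte genes 4 were higher in GOM and 5 in ULB (2 without the libraries of low Q30). Of 23 adipogenic transcription factors 3 were called each way, and of 18 clock genes 2 each way. Of 15 genes of lipid-associated macrophages 3 were higher in ULB and 0 in GOM. Of 11 thermogenic genes 2, UCP3 and ZIC1, were higher in ULB. Of 19 proliferation genes 1 was called each way, and of 14 steroid receptors and enzymes 2 were higher in GOM and 1 in ULB. All are counts of named lists, with no test of the list.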
